A study of Mus musculus with 11 samples.

Results

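A set of 7 nuclear genes of mitochondrial metabolism were examined in striatal cells with knockdown of NF-Y: Bckdha, Ivd, Ppox, Abcb8, Cyb5b, Adhfe1 and Gdap1. They were taken by gene symbol from the deposited striatal RNA-seq table, in which all 7 were found among 1767 genes. Bckdha and Ivd are the 2 members of branched-chain amino acid catabolism, and the other 5 act in heme and iron handling, at the outer membrane, in hydroxy acid oxidation and in the shape of the organelle.

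Leucine, isoleucine and valine are first transaminated by the branched-chain aminotransferases, and the resulting keto acids are then decarboxylated in the mitochondrial matrix by the branched-chain keto acid dehydrogenase complex. In brain the first step also supplies nitrogen for glutamate. NF-Y is a trimeric transcription factor that binds the CCAAT motif, which often lies shortly upstream of the start of a gene.

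The study injected the striata of both hemispheres of wild-type male B6 (C57BL/6) mice, aged 6 weeks, with an AAV vector that expresses EmGFP and artificial miRNAs from the CAG promoter, and took the cells 3 weeks later. The control vector carried the non-targeting miRNA (AAV-EmGFP-miR-NT2, here NT2, n = 6), and the knockdown vector carried miRNAs against NF-YA and NF-YC (AAV-EmGFP-miR-YAYC, here YAYC, n = 5). EmGFP-positive and PI-negative cells were sorted, and the CAG promoter is not specific to a cell type. Every gene in the table had been preselected by the authors at a p-value under 0.05 for this same comparison, so that all tests here describe genes already chosen for their difference. Whether the samples came from separate mice is not given for each of them, and p-values measure only the spread between these samples.

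Counts of the listed genes added up to between 1581757 and 3141324 in NT2 samples and between 1954949 and 3010153 in YAYC samples, which is not the depth of the libraries. Of the targeted genes, Nfyc was in the table and had normalized counts of 921 ± 173 in NT2 and 806 ± 146 in YAYC (SD, n = 6 and 5). Its log2 fold change was -0.19 (SE 0.15, edgeR adjusted p = 0.255) with TMM normalization and -0.32 (SE 0.14, edgeR adjusted p = 0.053) with the authors' scaling, neither of them a call at an adjusted p under 0.05. With a score of the glial markers as a covariate, it was -0.52 (SE 0.17, edgeR adjusted p = 0.0844) with TMM. Nfya was not analysed here. None of 19 neuronal markers was in the table, and the neuronal identity of the cells could not be checked with these data. The table held 7 of 40 glial markers, namely Aldoc, Fgfr3, Gja1, Gjb6, Slc1a3, Ugt8a and P2ry12. All 7 had lower means in YAYC, none was at 0 in any sample, and their summed normalized counts were 49059 to 112034 in NT2 and 40895 to 55708 in YAYC. Of 10 vascular markers, 5 were in the table, all with lower means in YAYC, and summed to 5287 to 8426 in NT2 and 3614 to 6276 in YAYC. These markers had passed the authors' preselection for this same comparison, and markers absent from the table could not be examined. A fall of glial or vascular RNA as a whole therefore cannot be read from them. In such bulk samples, fewer cells of a type and less RNA per cell cannot be told apart.

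Promoters of the members were inspected because NF-Y binds CCAAT. RefSeq promoter sequences of 300 bases, from 250 bases before to 50 bases after the start of the gene, were matched for 4 of the 7 members in build GRCm38.p6. Those of Bckdha and Ivd are shown because the branched-chain pair differed in this motif, and that of Ppox because it held as many matches as Ivd. They are written 5′ to 3′ on the strand of the gene, with every CCAAT and its reverse complement ATTGG in capitals. The Bckdha window is chr7:25658712-25659011 on the minus strand, the Ivd window is chr2:118861744-118862043 on the plus strand, and the Ppox window is chr1:171281137-171281436 on the minus strand.
Bckdha: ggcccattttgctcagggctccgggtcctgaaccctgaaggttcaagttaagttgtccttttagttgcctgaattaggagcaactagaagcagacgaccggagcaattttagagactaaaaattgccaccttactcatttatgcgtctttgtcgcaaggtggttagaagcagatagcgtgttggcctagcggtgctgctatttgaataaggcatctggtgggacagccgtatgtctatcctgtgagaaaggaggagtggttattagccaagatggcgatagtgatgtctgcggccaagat
Ivd: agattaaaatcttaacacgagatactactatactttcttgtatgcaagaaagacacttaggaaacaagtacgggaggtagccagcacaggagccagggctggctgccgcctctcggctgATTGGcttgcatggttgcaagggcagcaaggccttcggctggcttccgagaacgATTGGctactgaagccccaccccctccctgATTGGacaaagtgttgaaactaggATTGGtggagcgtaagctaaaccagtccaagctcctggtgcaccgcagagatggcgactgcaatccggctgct
Ppox: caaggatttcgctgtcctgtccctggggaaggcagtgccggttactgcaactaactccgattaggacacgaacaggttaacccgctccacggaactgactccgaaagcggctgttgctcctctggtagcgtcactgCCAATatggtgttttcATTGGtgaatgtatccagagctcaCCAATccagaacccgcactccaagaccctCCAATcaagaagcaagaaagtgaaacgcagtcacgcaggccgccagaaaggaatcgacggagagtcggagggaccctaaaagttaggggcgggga

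Ivd held 4 matches, all as ATTGG, whose first bases lay at -131, -77, -47 and -23 relative to the start. Ppox also held 4, with CCAAT at -114, -74 and -45 and ATTGG at -98. Cyb5b (chr8:107150411-107150710, plus strand) held 2, both as ATTGG, at -108 and -76, and Bckdha held 0 in this window. Of all 32851 RefSeq promoters of this length, 37.4% held at least 1 match on either strand, 11.7% at least 2 and 1.06% at least 4. Among the 1768 promoters of genes in the deposited table these shares were 38.7%, 13.8% and 1.58%. These promoters belong to 1344 of the listed genes, some with several, and the other listed genes had none. They were 44.4%, 18.2% and 1.97% for the 865 promoters of genes called lower with the authors' scaling, and 31.7%, 7.23% and 0.882% for the 567 of genes called higher, given here without a test. The 2 words do not overlap each other in these windows, and a match is a description of letters, not of binding.

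**Figure D1:**
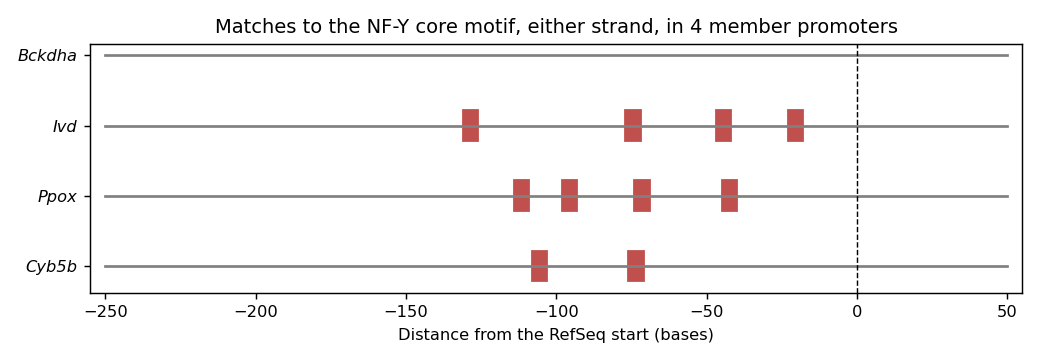
Positions of the NF-Y core motif on either strand (red boxes) in the promoters of Bckdha, Ivd, Ppox and Cyb5b, with distance from the RefSeq start in bases on the horizontal axis and the start as a dashed line. Ivd and Ppox have 4 boxes each and Cyb5b has 2, all upstream of the start, and Bckdha has 0.

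All 7 members had lower means in YAYC than in NT2. With TMM normalization, 2 of the 7 (Abcb8 and Adhfe1) were called lower at an edgeR adjusted p under 0.05, where 21.3% of all listed genes were called lower, and 3 of 7 had an unadjusted p under 0.05. With the scaling factors recovered from the authors' log2 values, 7 of 7 were called lower, where 47.3% of the listed genes were. In that fit 1405 of the listed genes were called in either direction. These log2 values were deposited with the authors' preselection by p-value, so the 7 calls are not independent of that preselection. The 2 scalings differ by a nearly constant shift, since the median log2 fold change over the table was -0.13 with TMM and -0.27 with the authors' scaling. The median of the members was -0.33 and -0.47, so that it lay below the table's median in both. No member was called higher in either, against 39.0% and 32.2% of the listed genes. The members were chosen with earlier results of these data known, so these contrasts with the table are descriptions and no test. When a glial marker score was added to the fit as a covariate, 0 of 7 members were called with either scaling. The members' median remained below 0 at -0.23 with TMM. The score uses only markers in the preselected table and itself differed between the groups, at 0.41 ± 0.60 in NT2 and -0.49 ± 0.36 in YAYC (SD, n = 6 and 5). This fit therefore cannot separate the score from the group, and the cause of the lost calls was not tested. In the fit with the glial score and TMM, 1 member had an unadjusted p under 0.05, and 16 genes of the table were called lower and 74 higher.

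**Figure D2:**
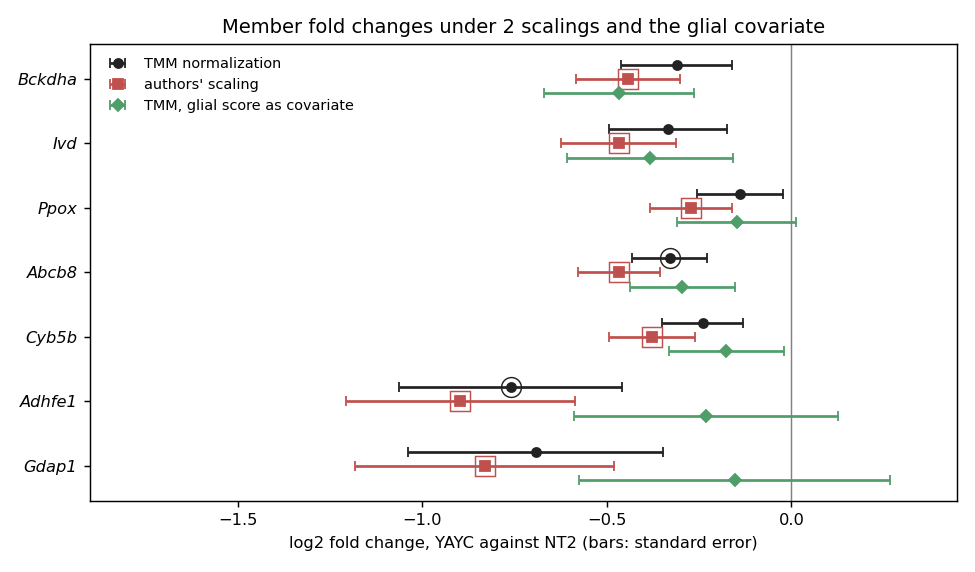
Log2 fold change of each member, YAYC against NT2, with bars for the standard error, under TMM normalization (black circles), the authors' scaling (red squares) and TMM with the glial score as a covariate (green diamonds). Outlined symbols have an edgeR adjusted p under 0.05, as Abcb8 and Adhfe1 with TMM and all 7 with the authors' scaling, and every point lies below 0.

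In branched-chain amino acid catabolism, Bckdha encodes the alpha subunit of the decarboxylase of the branched-chain keto acid dehydrogenase complex, which commits all 3 branched-chain keto acids to oxidation. It lies at chr7:26414871-26443780 on the minus strand (mm9, as given in the table). Its normalized counts in NT2 were 436 at the lowest, 546 at the median and 650.2 at the highest. In YAYC they were 396, 517, 485, 473 and 325 in samples 4, 6, 8, 10 and 22. All 5 YAYC samples lay below the NT2 median, and 2 lay below every NT2 sample, so that the groups overlapped. Means were 544 ± 85.7 in NT2 and 439 ± 77.7 in YAYC (SD, n = 6 and 5), or 80.6% of the control level. The log2 fold change was -0.31 (SE 0.15, edgeR adjusted p = 0.0856) with TMM and -0.44 (SE 0.14, edgeR adjusted p = 0.0247) with the authors' scaling, and two-sided exact permutation tests gave p = 0.0714 and p = 0.013.

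With the glial score in the fit, Bckdha had a log2 fold change of -0.47 (SE 0.20, edgeR adjusted p = 0.154, unadjusted p = 0.0404) with TMM, farther from 0 than without the score. Its exons share 61.7% of their bases with B3gnt8 on the opposite strand in GENCODE M21. Use of strand in the counting is not given in the sources used here, and where the exons overlap the reads of the 2 genes cannot then be told apart.

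Ivd encodes isovaleryl-CoA dehydrogenase, which acts at the next step in the leucine branch, and lies at chr2:118687736-118707093 on the plus strand (mm9). NT2 samples had normalized counts from 1164 to 1955, with a median of 1509. YAYC samples 4, 6, 8, 10 and 22 had 927, 1501, 1079.8, 1433 and 1033. In 3 YAYC samples the count lay below every NT2 sample, while samples 6 and 10 lay within the NT2 range. The means of 1507 ± 279 and 1195 ± 256 (SD, n = 6 and 5) correspond to 79.3% of the control level. Its log2 fold change of -0.33 (SE 0.16, edgeR adjusted p = 0.0831, exact permutation p = 0.0801) with TMM was not called, and with the authors' scaling it was -0.47 (SE 0.16, edgeR adjusted p = 0.0267, exact permutation p = 0.0216). With the glial score it was -0.38 (SE 0.23, edgeR adjusted p = 0.255). Ivd lost its call with the authors' scaling when YAYC 4, YAYC 8 or YAYC 22 was left out, at edgeR adjusted p-values of 0.0531, 0.0506 and 0.0514.

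Bckdha and Ivd thus had similar proportional differences in their means. YAYC sample 22 was the lowest for Bckdha and sample 4 for Ivd, while sample 6 was the highest YAYC sample for both. Over the 11 samples, after centring on the group means, Pearson's r between them was 0.63 (permutation p = 0.0569) and Spearman's rho was 0.64 (permutation p = 0.0537). Without YAYC 22 and NT2 21, the samples farthest from the median in the centred Bckdha values, r was 0.60 (n = 9). Ivd was not considered in that choice. This was the only relation given a p, so that no adjustment over relations applies, and neither p passed 0.05.

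**Figure D3:**
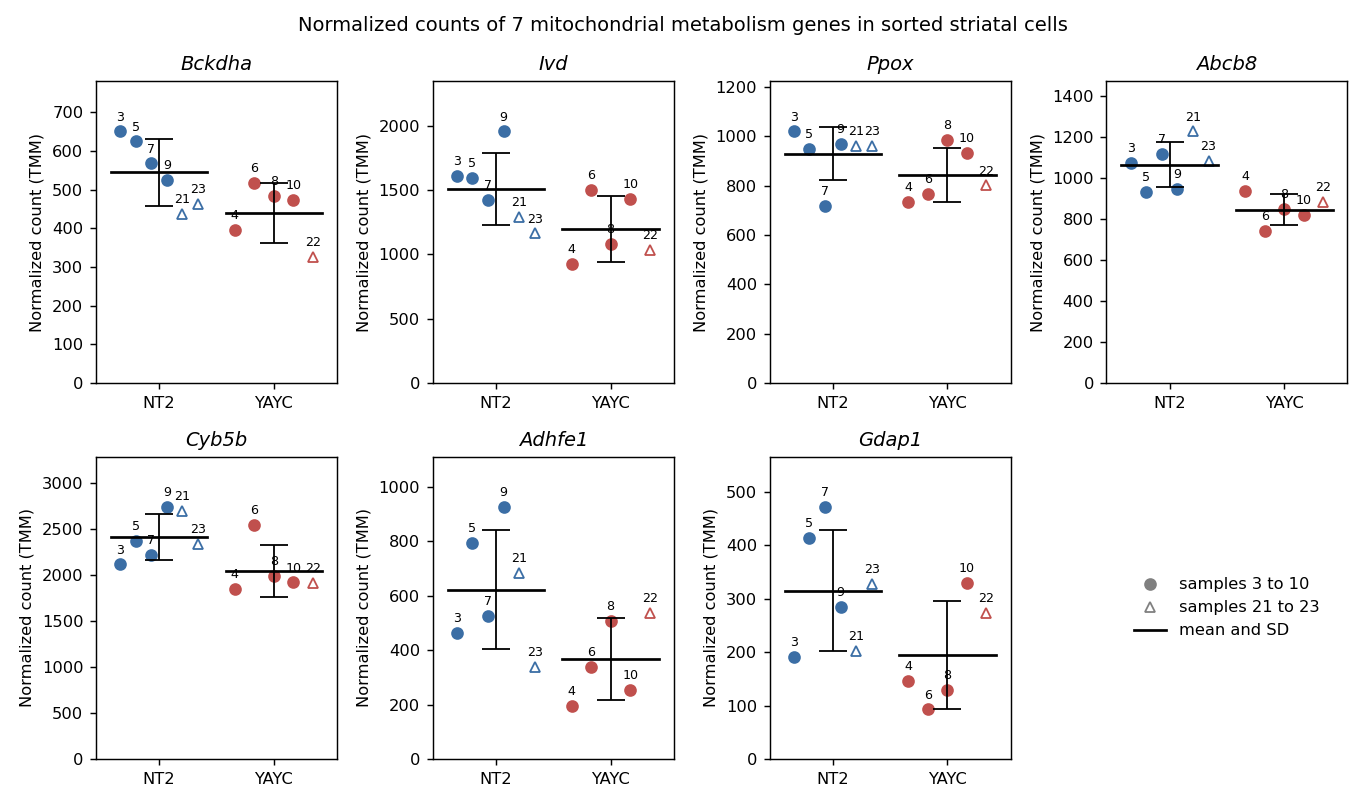
Normalized counts (TMM, vertical axis starting at 0) of the 7 members in each NT2 (blue) and YAYC (red) sample, labelled with the sample number, with the mean as a line and the SD as bars. Filled circles are samples 3 to 10 and open triangles samples 21 to 23, and the groups overlap in all 7 panels, least in Abcb8.

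The listed genes of the pathway did not move in 1 direction. Of a list of 30 genes of branched-chain amino acid catabolism, 8 were in the table, Bckdha and Ivd among them. With TMM 4 of the 8 were called lower and 2 higher, where 21.3% and 39.0% of all listed genes were. With the authors' scaling 6 were called lower, Bckdha and Ivd among them, and 1 higher, where 47.3% and 32.2% of the listed genes were. Bcat1, the cytosolic aminotransferase of the first step, rose from 506 ± 98.5 to 953 ± 88.9 normalized counts, a log2 fold change of 0.91 (SE 0.14, edgeR adjusted p = 0.00193). Bcat2, the mitochondrial aminotransferase, rose by 0.34 on the log2 scale with TMM (SE 0.11, edgeR adjusted p = 0.0238) and was 0.21 higher with the authors' scaling (edgeR adjusted p = 0.0567). The 4 genes called lower with TMM serve steps after the keto acid dehydrogenase. Mccc2, a subunit of methylcrotonyl-CoA carboxylase, which follows Ivd in the leucine branch, had a log2 fold change of -0.42 (SE 0.16, edgeR adjusted p = 0.0437). Echs1, the short-chain enoyl-CoA hydratase, had -0.39 (SE 0.12, edgeR adjusted p = 0.0226). Aldh6a1, methylmalonate semialdehyde dehydrogenase of the valine branch, had -0.53 (SE 0.20, edgeR adjusted p = 0.0405). Mmab, which makes the adenosylcobalamin cofactor of methylmalonyl-CoA mutase, had -0.50 (SE 0.18, edgeR adjusted p = 0.0342). The 8 genes, with the 2 members included, had a median log2 fold change of -0.36 with TMM and -0.50 with the authors' scaling, against -0.13 and -0.27 over the table.

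Among the members of heme and iron handling, Ppox encodes protoporphyrinogen oxidase, which catalyses the penultimate step of heme synthesis on the inner membrane. It lies at chr1:173207123-173211317 on the minus strand (mm9). Its NT2 samples had normalized counts of 718 at the lowest, 959 at the median and 1019.9 at the highest, and 5 of the 6 were at or above 949.8. Its YAYC counts were 733, 768, 984, 931 and 801 in samples 4, 6, 8, 10 and 22, and none lay below NT2 sample 7. Means were 929 ± 106 and 843 ± 109 (SD, n = 6 and 5). Ppox had the smallest difference of the 7 with either scaling, with a log2 fold change of -0.14 (SE 0.12, edgeR adjusted p = 0.274, exact permutation p = 0.234) with TMM and -0.27 (SE 0.11, edgeR adjusted p = 0.0436, exact permutation p = 0.0368) with the authors' scaling. The difference lay near the middle of the table, since 49.0% of the listed genes were more negative with TMM. The call with the authors' scaling was lost when any of NT2 3, 5, 9, 21 and 23 or YAYC 4, 6 and 22 was left out, with edgeR adjusted p-values of up to 0.0952. The fit with the glial score gave -0.15 (SE 0.16, edgeR adjusted p = 0.497). The exons of Ppox share 17.5% of their bases with B4galt3 on the opposite strand.

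Abcb8 encodes a transporter of the ATP-binding cassette family in the inner mitochondrial membrane, which is a part of the mitochondrial ATP-sensitive potassium channel and has been tied to iron export, and lies at chr5:23899974-23915765 on the plus strand (mm9). Normalized counts were 933, 1077 and 1226 at the lowest, median and highest NT2 sample. The YAYC samples 4, 6, 8, 10 and 22 had 936, 739.8, 850.4, 818 and 883. Of these, 4 lay below every NT2 sample, and sample 4 exceeded only the lowest. Its means of 1063 ± 110 and 846 ± 73.5 (SD, n = 6 and 5) gave a log2 fold change of -0.33 (SE 0.10, edgeR adjusted p = 0.0217, exact permutation p = 0.0108). With the authors' scaling it was -0.47 (SE 0.11, edgeR adjusted p = 0.0123), and every YAYC sample lay below every NT2 sample, with an exact permutation p = 0.00216, the smallest that this design allows. No other member separated the groups in this way with the authors' scaling and 0 of 7 did with TMM, where 6.11% and 2.43% of the listed genes did. Abcb8 was called in each of the 11 fits that left out 1 sample, with either scaling, but not with the glial score, at -0.30 (SE 0.14, edgeR adjusted p = 0.186).

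Of 23 genes of heme synthesis and mitochondrial iron, 3 were in the table. The third, Slc25a37 (mitoferrin-1), which carries iron into the mitochondrial matrix, rose with a log2 fold change of 0.46 (SE 0.15, edgeR adjusted p = 0.0254) with TMM and 0.32 (SE 0.14, edgeR adjusted p = 0.0487) with the authors' scaling. Its log2 fold change thus had the opposite sign to those of Ppox and Abcb8.

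At the outer membrane, Cyb5b encodes the outer mitochondrial membrane form of cytochrome b5, an electron carrier, and lies at chr8:109674561-109711370 on the plus strand (mm9). It had the highest level of the 7 per exon length, with 551 ± 57.8 normalized counts per kb in NT2 (SD, n = 6). NT2 samples had normalized counts from 2113 to 2736, with a median of 2352. YAYC samples 4, 8, 10 and 22 had 1851, 1986, 1918 and 1909, all below every NT2 sample, and sample 6 had 2543, within the NT2 range. The means were 2410 ± 253 and 2041 ± 285 (SD, n = 6 and 5). The log2 fold change was -0.24 (SE 0.11, edgeR adjusted p = 0.0709, exact permutation p = 0.0455) with TMM and -0.38 (SE 0.12, edgeR adjusted p = 0.0228, exact permutation p = 0.0152) with the authors' scaling. Leaving out YAYC 6 gave -0.33 with TMM (edgeR adjusted p = 0.0308) and leaving out NT2 3 gave -0.27 (edgeR adjusted p = 0.0432), and both were then called. With the glial score the value was -0.18 (SE 0.16, edgeR adjusted p = 0.419).

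Gdap1 encodes an outer membrane protein that takes part in mitochondrial fission and is mutated in a form of Charcot-Marie-Tooth neuropathy. It lies at chr1:17135454-17154351 on the plus strand (mm9) and had the lowest level of the 7 per exon length, with 40.7 ± 14.6 normalized counts per kb in NT2 (SD, n = 6). Its NT2 counts ranged from 191 to 472 with a median of 306. In YAYC it had 147, 92.8 and 129 in samples 4, 6 and 8, which lay below every NT2 sample, and 330.3 and 273 in samples 10 and 22, which did not. Means were 315 ± 113 and 194 ± 102 (SD, n = 6 and 5), or 61.7% of the control level. The log2 fold change of -0.69 (SE 0.35, edgeR adjusted p = 0.0925, exact permutation p = 0.0844) with TMM was not called. Under the authors' scaling it became -0.83 (SE 0.35, edgeR adjusted p = 0.0467, exact permutation p = 0.0541), and the call was lost without any of NT2 5, 7, 9, 21 and 23 or YAYC 4, 6 and 8, at edgeR adjusted p-values of up to 0.0951. With TMM, leaving out YAYC 10 gave -0.97 (edgeR adjusted p = 0.0388). With the glial score it was -0.15 (SE 0.42, edgeR adjusted p = 0.783).

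Of the 19 listed genes of the outer membrane and cytochrome b5, 3 were in the table, and beside these members Cpt1a, the carnitine palmitoyltransferase that admits long-chain fatty acids, had -0.21 (edgeR adjusted p = 0.102) with TMM and -0.34 (edgeR adjusted p = 0.0228) with the authors' scaling. Of 18 genes of fission and fusion, 2 were in the table. Pink1, the kinase that marks damaged mitochondria, had -0.31 (edgeR adjusted p = 0.0852) with TMM and -0.45 (edgeR adjusted p = 0.0322) with the authors' scaling, so that Gdap1 and Pink1 were both called lower only in the latter. With that scaling 47.3% of all listed genes were called lower.

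Adhfe1 encodes hydroxyacid-oxoacid transhydrogenase, which converts gamma-hydroxybutyrate to succinic semialdehyde, and lies at chr1:9538127-9570754 on the plus strand (mm9). It had the largest difference of the 7 over all samples with either scaling, although Bckdha had the largest with the glial score in the fit. Gdap1 exceeded Adhfe1 with either scaling when NT2 9, NT2 21, YAYC 4 or YAYC 10 was left out. The gap was widest without YAYC 10 (-0.97 against -0.65 with TMM, -1.10 against -0.79 with the authors' scaling) and slight without YAYC 4. Normalized counts in NT2 were 339.3 at the lowest, 604 at the median and 926 at the highest. YAYC samples 4, 6 and 10 had 196, 339.2 and 253.5, below every NT2 sample, although sample 6 lay only just below the lowest of 339.3, and samples 8 and 22 had 507 and 538, within the NT2 range. Means were 622 ± 219 and 367 ± 151 (SD, n = 6 and 5), or 59.0% of the control level. Adhfe1 fell with a log2 fold change of -0.76 (SE 0.30, edgeR adjusted p = 0.0455, exact permutation p = 0.0606) with TMM and -0.90 (SE 0.31, edgeR adjusted p = 0.0293, exact permutation p = 0.0325) with the authors' scaling. With TMM the call was lost without any of NT2 5, 7, 9 and 21 or YAYC 4, 6 and 10, at edgeR adjusted p-values of up to 0.102. With the authors' scaling it was lost without NT2 9 or YAYC 4, 6 or 10, at up to 0.0571 (edgeR adjusted p). Its exons share 4.07% of their bases with 2610203C22Rik on the opposite strand. With the glial score in the fit, the log2 fold change was -0.23 (SE 0.36, edgeR adjusted p = 0.62).

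Aldh5a1, succinic semialdehyde dehydrogenase, takes up the product of Adhfe1 and closes the GABA shunt. It fell as well, from 398 ± 124 to 237 ± 92.8 normalized counts, with a log2 fold change of -0.75 (SE 0.29, edgeR adjusted p = 0.0392) with TMM and -0.90 (SE 0.29, edgeR adjusted p = 0.0262) with the authors' scaling. These were the only 2 of 8 genes on the list of hydroxy acid and GABA shunt oxidation that were in the table. Both were called lower in both scalings, where 21.3% of all listed genes were with TMM and 47.3% with the authors' scaling. For Aldh5a1 the fits with the glial score or with samples left out, in some of which Adhfe1 lost its call, are not given here.

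The spread between samples differed among the members. Adhfe1 and Gdap1 had coefficients of variation of 35.2% and 35.8% in NT2 and 41.3% and 52.4% in YAYC. The other 5 members had 10.3% to 18.5% in NT2 and 8.69% to 21.4% in YAYC, with Abcb8 the least variable in both groups with TMM. With the authors' scaling, Abcb8 was the least variable in YAYC only, and its 13.0% in NT2 exceeded the 10.1% of Ppox. Counting alone would give 2.08% to 6.02% at these counts. Levels per exon length in NT2 placed Cyb5b first, followed by Bckdha with 287 ± 45.1, Ivd with 274 ± 50.7, Abcb8 with 224 ± 23.1, Ppox with 206 ± 23.6, Adhfe1 with 165 ± 57.9 and Gdap1 (normalized counts per kb, SD, n = 6). From Bckdha to Adhfe1, each neighboring pair in this order differed by less than the larger of its SDs, whereas Cyb5b and Gdap1 differed from their neighbors by more. The order depends on the length used, and these levels are per kb of all exons in GENCODE M21, which may not be the annotation of the counting. Per kb of the longest transcript, Ivd (411 ± 76.2) and Abcb8 (346 ± 35.7) came before Bckdha (287 ± 45.1), while Cyb5b (558 ± 58.6) was still first and Gdap1 (79.8 ± 28.6) last.

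Sample numbers run from 3 to 10 and from 21 to 23, and the labels do not say what separates the 2 runs. Within samples 3 to 10 (4 against 4), all 7 differences of log2 normalized counts had the direction of the whole comparison with TMM. Bckdha was -0.34 (exact permutation p = 0.0286, the smallest that 4 against 4 allows), Ivd -0.43 (exact permutation p = 0.0857) and Abcb8 -0.28 (exact permutation p = 0.0571). Ppox was -0.10 and Cyb5b -0.19 (exact permutation p = 0.6 and 0.229). Adhfe1 and Gdap1 had the largest differences there, -1.10 and -1.04 (exact permutation p = 0.0571 and 0.0857). Within samples 21 to 23, which hold 2 NT2 and 1 YAYC sample and allow no test, Adhfe1 and Gdap1 were 0.16 and 0.08 higher in YAYC, whereas the other 5 were lower, from -0.47 for Bckdha to -0.25 for Ivd. With the authors' scaling, Adhfe1 was 0.02 higher and Gdap1 differed by -0.06 in these samples.

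Across 10 lists of mitochondrial genes, 25 genes other than the members were in the table. With TMM 6 of the 25 were called lower and 14 called higher, where 21.3% and 39.0% of all listed genes were. With the authors' scaling 9 were called lower and 11 higher, where 47.3% and 32.2% of the listed genes were. In both scalings 11 of the 25 log2 fold changes were below 0. Their medians were 0.38 with TMM and 0.25 with the authors' scaling, on the other side of 0 from the members' medians. Members and lists were chosen with earlier results of these data known, so this contrast is a description and no test. Of 78 genes of the mitochondrial ribosome, 6 were in the table, and 5 were called higher with TMM (4 with the authors' scaling). With TMM Mrps28 had a log2 fold change of 0.60 (SE 0.14, edgeR adjusted p = 0.0108) and Mrpl44 had 0.43 (SE 0.13, edgeR adjusted p = 0.0208), whereas Mrps17 had -0.01 (edgeR adjusted p = 0.906). Of 106 genes of the respiratory chain, 4 were in the table. Atp5sl, Bcs1l and Cox18, which is an assembly factor like Bcs1l, rose by 0.54, 0.39 and 0.50 on the log2 scale with TMM (edgeR adjusted p = 0.0307, 0.0327 and 0.0247), and with the authors' scaling Bcs1l was no longer called (edgeR adjusted p = 0.0697). Atp5sl entered the list by the start of its symbol alone, which does not make it a subunit of the ATP synthase. The other gene, Cox4nb, entered in the same way and encodes no subunit of the chain. Cox4nb had -0.13 (edgeR adjusted p = 0.235) with TMM.

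Among 47 mitochondrial carriers, 4 were in the table. The citrate carrier Slc25a1 rose by 0.44 and the glutamate carrier Slc25a22 by 0.65 on the log2 scale (edgeR adjusted p = 0.014 and 0.0155), and a second glutamate carrier, Slc25a18, had -0.53 (SE 0.30, edgeR adjusted p = 0.123) with TMM. Pcx, pyruvate carboxylase, was the only 1 of 25 genes of the tricarboxylic acid cycle list in the table and fell, with -0.56 (SE 0.16, edgeR adjusted p = 0.0187). Of 22 genes of fatty acid oxidation, Cpt1a and Cpt1b were in the table, and Cpt1b, at 48.2 ± 15.6 normalized counts in NT2 and 109 ± 43.1 in YAYC, rose by 1.18 on the log2 scale (SE 0.35, edgeR adjusted p = 0.0209).

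**Figure D4:**
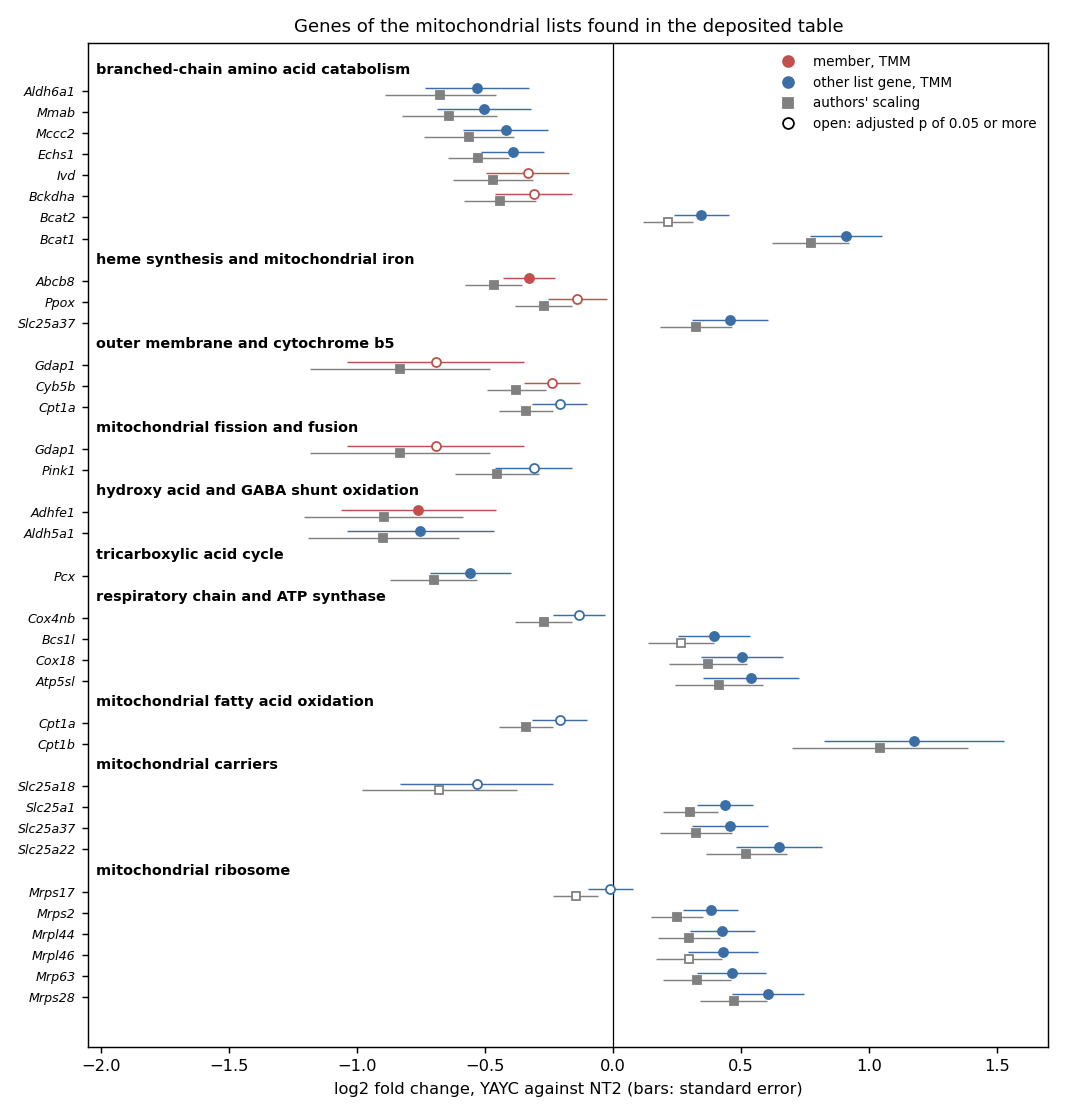
Log2 fold change, YAYC against NT2, of the members (red) and the other genes of 10 mitochondrial lists (blue) with TMM normalization, and of the same genes with the authors' scaling (grey squares), with bars for the standard error and open symbols for an edgeR adjusted p of 0.05 or more. Branched-chain genes lie below 0 except Bcat1 and Bcat2, and 5 of 6 mitochondrial ribosome genes lie above 0.

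The genes whose sample-to-sample pattern was most like that of each member were taken by Pearson's r of log2 normalized counts over the 11 samples, centred on the group means, among genes with a mean of at least 50. Bckdha was most like Slc2a8 (r = 0.82) and Mettl8 (0.78), and Ivd was most like 1700009P17Rik (0.93) and Avpi1 (0.88). For Ppox these were E230008N13Rik (0.92) and Gimap6 (0.86), and for Abcb8 they were Serinc5 (0.90) and Paqr4 (0.89). For Cyb5b they were Robo4 (0.89) and Otx1 (0.88), for Adhfe1 1700019G17Rik (0.88) and Dnahc11 (0.87), and for Gdap1 Rhbdl1 (0.88) and Mcf2l (0.88). No member was among the 2 genes most like another member. These values are descriptive, since the best of many genes was taken and all of them share the same 11 libraries.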

How the data were processed

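RNA-seq data of sorted striatal cells from 6 NT2 and 5 YAYC samples were analyzed, grouped by the vector named in the labels. Reads were counted per gene by the authors in the Strand NGS software, and the deposited values are estimated counts, which are not normalized and of which 52.9% were whole within 0.001. The authors also deposited log2 values, from which their scaling factors per sample were recovered over 1247 genes. The submitters' processing notes name the build mm9, and the annotation is not given in the sources used here. The deposited p-values and fold changes of the authors' own comparison were not used.

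Estimated counts of all 1767 genes were rounded and fitted with edgeR 4.0.16 (R 4.3.3, glmQLFit and glmQLFTest) after TMM normalization, with group as the only term. P-values were Benjamini-Hochberg adjusted over all 1767 genes, and an adjusted p under 0.05 was a call. TMM assumes that most genes do not differ, which a table preselected by p-value does not meet. Values with the authors' scaling are therefore given beside, and these are not independent of the preselection. The fit was tested on simulated data in which as many genes were raised as lowered. Calls in the deposited table were not even in direction, so that simulation does not show how TMM behaves here. Normalized counts are counts divided by the sample's relative factor. For permutation tests 0.5 was added to each count before taking log2; these were two-sided over all 462 divisions of the 11 samples. The glial score is the mean of the centred log2 values of the glial markers in the table. Alternatives were DESeq2 1.42.0, its size factors, a highest count of at least 200, the number series or glial score as covariate, a robust fit, samples 3 to 10 alone, and each sample left out. The last and the glial score were also run with the authors' scaling, chosen after seeing the data.

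The members and lists were chosen with earlier results of these data known. Named genes are the members, all genes of the lists found in the table, NF-Y subunits, and the 2 genes most like each member. No pair of samples within a group agreed within sampling noise, and each sample was counted as 1 replicate. The spread between samples of a group was larger than counting error for every member, so precision is limited mainly by that spread. The depth of the libraries was not analysed here.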

Additional observations from a re-analysis of the deposited data

Results flagged for a closer look

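Ppox had a normalized count of 718 in NT2 replicate 7, the lowest of the 6 NT2 samples, and its gap to the next sample was 0.768 of the group's range, above Dixon's critical value for 6 samples. Cyb5b had a normalized count of 2543 in YAYC replicate 6, the highest of the 5 YAYC samples, with a gap of 0.805 of the range, above that for 5 samples. Both were found in 14 groups of values (7 members in NT2 and in YAYC), and chance alone gives about 1 in 20 such groups.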

How the results depend on the processing

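All 7 members kept a log2 fold change below 0 in all 32 settings. The median over the genes of the table was also below 0 in each setting, from -0.05 to -0.27. These settings reuse the same samples and the same preselected genes. The authors' scaling gave -0.44 for Bckdha, -0.47 for Ivd, -0.27 for Ppox, -0.38 for Cyb5b and -0.83 for Gdap1, all then called, and 7 members called lower in place of 2. With the number series as a covariate, Bckdha (-0.37) and Ivd (-0.37) were called and Adhfe1 (-0.76) was not. With the glial score, Abcb8 (-0.30; -0.37 with the authors' scaling) and Adhfe1 (-0.23; -0.30) were not called, 0 members were, and calls over the table fell from 1066 to 90 (51 with the authors' scaling). A highest count of at least 200 left 1328 genes with 643 calls and 1 member called, with Adhfe1 at -0.71. Samples 3 to 10 alone gave 207 calls and 0 members, with Abcb8 at -0.28 and Adhfe1 at -1.06. The cause of these changes was not tested. Of all calls, 35.4% were lower with TMM, 59.5% with the authors' scaling, 40.3% with DESeq2 and 17.8% with the glial score.

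Leaving out 1 sample at a time gave -0.38 to -0.22 for Bckdha, -0.43 to -0.23 for Ivd, -0.20 to -0.094 for Ppox, -0.37 to -0.28 for Abcb8, -0.33 to -0.19 for Cyb5b, -0.94 to -0.60 for Adhfe1 and -0.97 to -0.52 for Gdap1 with TMM, with 1 to 3 members and 721 to 1121 genes called. With the authors' scaling the ranges were -0.50 to -0.35, -0.56 to -0.38, -0.33 to -0.23, -0.51 to -0.40, -0.47 to -0.33, -1.08 to -0.74 and -1.10 to -0.65 in the same order, with 3 to 6 members (3 without YAYC 4) and 848 to 1358 genes called. No paired analysis was possible because the groups share no sample number and the labels name no pairs. The table holds only preselected genes, and counting error at the mean is largest for Gdap1, at 6.02%.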
